A study of Mus musculus with 20 samples.

Results

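The WT hearts were the 10 hearts of normal genotype in a series of 20 mouse hearts collected at E13.5 (the number gives the day of embryonic development), and they were chosen by the genotype label alone. They are described here without any comparison of genotypes. The other hearts of the series came from Dp1Tyb embryos, a mouse model of Down syndrome, and from Dp1TybDyrk1a+/+/- embryos, the same model with the number of Dyrk1a copies brought back to normal (5 hearts of each), and bulk messenger RNA of whole snap-frozen hearts was sequenced in all of them. The WT hearts were littermates of one or the other mutant strain, 5 of each by the design, on a C57BL/6J background and untreated, and which litter a heart came from was not given in the labels. Each heart is named here by its library number: A1, A2, A8 and A10 were run in lane 6, A5, A11, A13 and A19 in lane 3, and A16 and A20 in lane 7.

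At this stage the chambers of the mouse heart are formed and beating, and the septa and outflow valves are being completed. Cardiomyocytes of the atria and ventricles, endocardial and vascular endothelium, mesenchyme of the cushions, the epicardial cover with its derived cells, smooth muscle of the great vessels and resident macrophages make up the organ, and blood in the chambers contributes nucleated primitive and maturing red cells. A whole heart can also carry the tissue next to it, such as the root of the lung or of the great arteries, depending on the dissection.

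Values were log2 normalized counts, scaled by the authors over all 20 hearts with a transformation that pulls low counts toward the mean of the gene. They give a level per gene and not per length, so levels of different genes were compared only after division by the length of the gene's canonical transcript in kilobases (level per kb). Of 48795 genes in the table, 15303 (31.4%) had a mean of at least 10 normalized counts over the WT hearts, with the mean taken on the log2 scale, and are called expressed. The hearts were closely aligned: the median expressed gene lay between 8.66 and 8.68 on the log2 scale in each of the 10 hearts. Protein-coding genes made up 90.3% of the expressed genes (13815 of 21316 in the table), long non-coding RNA genes 4.34% and pseudogenes 3.14%.

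The markers that define cardiac muscle were present at high level. All 22 genes of the sarcomere list were expressed, with a median of 14 on the log2 scale, and so were all 12 genes of the atrial list, all 8 of the ventricular list and all 12 of the conduction and sinus node list. All 22 cardiac transcription factors, all 18 endothelial and endocardial genes, all 18 genes of mesenchyme and matrix, all 11 epicardial, all 10 smooth muscle and all 15 macrophage genes passed the same minimum. Several defining markers of neighbouring organs did not: Sftpc (lung surfactant), Apoa1, Ttr, Serpina1a, Fgb and Hnf4a (liver), Foxn1, Pax1, Gcm2 and Pth (thymus and parathyroid), Myod1, Myf5, Myf6 and Pax7 (skeletal muscle progenitors). Other members of the same lists passed: 5 of 10 liver genes, 3 of 7 of thymus and pharyngeal endoderm and 7 of 12 of skeletal muscle. Over all protein-coding genes the share that passed was 64.8%, so passing alone is not read as a sign of a tissue. Of the lung and gut epithelium list, 9 of 10 genes passed, at a median of 5.56 on the log2 scale, and Epcam, the highest of them per length, stood at 49.4 normalized counts per kb.

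The most abundant genes were mostly of a few kinds. The 50 most abundant genes took 18.4% ± 0.81 (SD, n = 10) of the summed normalized count, and the 185 genes above 10000 normalized counts, 1.21% of the expressed genes, took 28.6%. On the scale per kb, the 25 highest genes comprised 9 of the mitochondrial chromosome, 3 nuclear copies of mitochondrial genes, 5 globins, 4 sarcomere genes, 3 imprinted genes and Eef1a1, which encodes the translation elongation factor that brings aminoacyl-tRNA to the ribosome. The 50 highest genes took 31.3% ± 2.1 (SD, n = 10) of the summed level per kb. The 136 expressed genes with no entry in the annotation have no known length and are left out of the scale per kb. Among them was ENSMUSG00000098178, which stood at rank 2 of all genes by mean log2 normalized count, after mt-Co1.

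**Figure D1:**
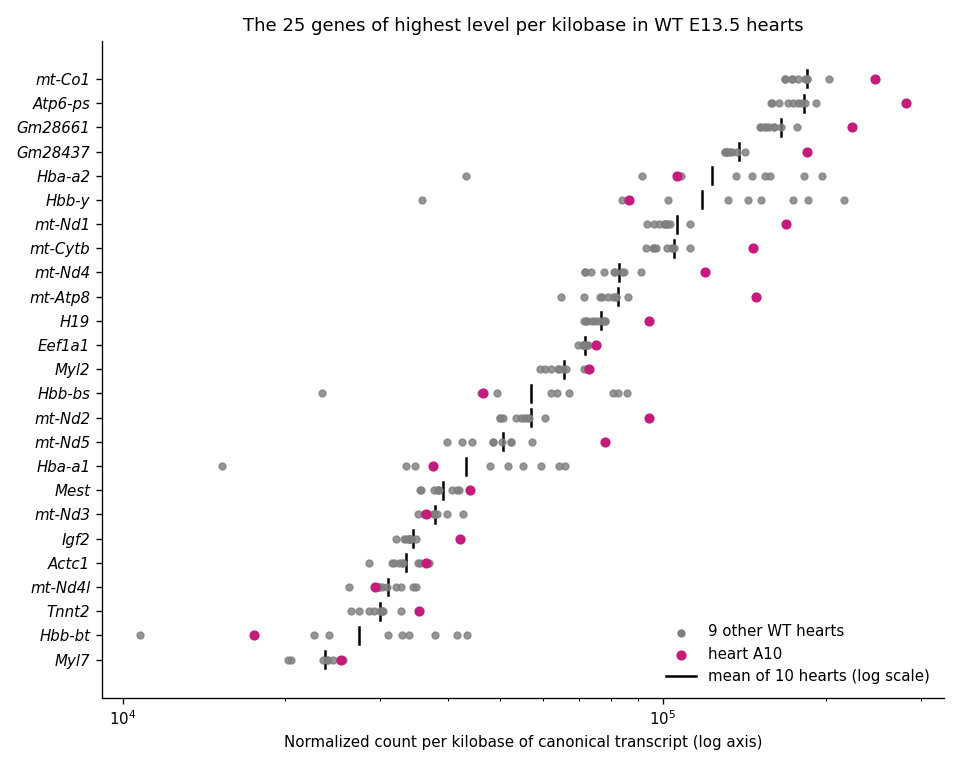
The 25 genes of highest level per kb, in normalized counts per kilobase of canonical transcript on a log axis, with 1 point per WT heart (heart A10 in magenta) and a bar at the mean of the 10 hearts on the log scale. Globin genes spread most between hearts, and A10 lies apart to the right in most of the mitochondrial genes and their copies.

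The highest single gene on both scales was mt-Co1, the catalytic subunit of cytochrome c oxidase, with a level of 185000 normalized counts per kb. Its log2 normalized count was lowest at 17.99 in A2 and A8, had a median of 18.09 and was highest at 18.54 in A10. Next per kb came Atp6-ps (182000), Gm28661 (165000) and Gm28437 (138000), which are not mitochondrial genes but copies of mt-Atp6, mt-Co2 and mt-Co3 in the nuclear genome. mt-Nd1 (106000 per kb) and mt-Cytb (105000 per kb), subunits of respiratory complexes I and III, stood at ranks 7 and 8, below the globins Hba-a2 and Hbb-y.

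The nuclear copies lie side by side in an insertion of mitochondrial DNA on chromosome 1 (GRCm39, GENCODE M39): Gm28439 at chr1:24650616-24651491, Gm10222 at chr1:24651488-24651781, Gm28438 at chr1:24651856-24652200, Gm28437 at chr1:24652270-24653052, Atp6-ps at chr1:24653055-24653732, Gm28661 at chr1:24653966-24654646 and Gm29216 at chr1:24654787-24655278. Over their whole length Atp6-ps, Gm28661 and Gm28437 did not differ in any base from mt-Atp6 (678 bases aligned), mt-Co2 (681) and mt-Co3 (783), and Gm28439 and Gm10222 likewise matched mt-Nd4 (876) and mt-Nd4l (294). A read from such a stretch has no base by which to tell the copy from the gene, so the level listed for each depends on how the authors' counting split shared reads. The only differing base in 345 between Gm28438 and mt-Nd3, and the only one in 483 between Gm29216 and mt-Co1, are shown in capitals in the following 61-base windows of the transcripts (GENCODE M39), because the levels of these copies are among the most variable of the data.
Gm28438 (bases 1 to 61): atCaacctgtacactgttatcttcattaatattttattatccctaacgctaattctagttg
mt-Nd3 (bases 1 to 61): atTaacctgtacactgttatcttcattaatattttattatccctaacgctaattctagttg
Gm29216 (bases 10 to 70): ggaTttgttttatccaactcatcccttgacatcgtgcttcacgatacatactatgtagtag
mt-Co1 (bases 1063 to 1123): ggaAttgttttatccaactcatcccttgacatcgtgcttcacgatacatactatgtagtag
Counted from the first base of the mitochondrial transcript, the differences are T3C in mt-Nd3 and A1066T in mt-Co1, with the mitochondrial base first.

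The 15 expressed genes of the mitochondrial chromosome took 4.85% ± 0.69 (SD, n = 10) of the summed normalized count and the 7 copies on chromosome 1 a further 1.89% ± 0.27. Both sets were lowest in A8 (4.32% and 1.73%) and highest in A10 (6.68% and 2.63%). Together they took 6.74% ± 0.95 over 10 hearts and 6.45% ± 0.31 over the 9 hearts without A10, with a range of 6.05% to 7.05% in those 9, all below the 9.31% of A10.

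Contractile genes were also among the most abundant. Per kb the ventricular light chain Myl2 (65500), cardiac actin Actc1 (33400), troponin T gene Tnnt2 (29900), the atrial light chains Myl7 (23700) and Myl4 (23100) and the slow myosin heavy chain Myh7 (22500) led, while Myh6, the fast heavy chain, stood at 9280. The log2 normalized count ranged from 16.92 to 17.32 for Myh7 (SD 0.127) and from 15.54 in A2 to 16.01 in A20 for Myh6 (SD 0.147). Nppa, the atrial natriuretic peptide gene, ranged from 13.73 in A19 to 14.29 in A5 with a median of 14.02 on the log2 scale (17300 per kb on average). Pln, which encodes the inhibitor of the calcium pump of the sarcoplasmic reticulum, ranged from 13.70 to 14.04 (3620 per kb). Giant Ttn, the molecular spring of the sarcomere, ranked 40 by normalized count but stood at only 273 per kb.

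Among regulators, Tbx20, a T-box factor of the chamber myocardium, was highest per kb (1670), ahead of Mef2a (1120), Gata4 (1010), Hand2 (820), Nkx2-5 (766), Tbx5 (482) and Hand1 (173). Tbx20 varied little, from 13.72 in A19 to 14.07 in A20 on the log2 scale (SD 0.0909, n = 10). Hey2 (701) and Irx4 (309), repressors that mark ventricular muscle, and Tbx18 (356), Shox2 (188) and Hcn4 (103), which mark the sinus venosus and pacemaker cells, lay in the range of these factors or below it. Of the last 3, Shox2 spread widest, from 8.65 in A20 and 8.69 in A2 to 9.69 in A10 on the log2 scale, while Tbx18 stayed between 10.57 and 10.76.

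Imprinted growth genes, expressed from 1 parental allele, were among the most abundant transcripts. H19, a non-coding RNA, stood at 76700 per kb, Mest at 39200, Igf2, the fetal growth factor, at 34500, Grb10, an adaptor of insulin signalling, at 7910 and Igf2r, the receptor that clears Igf2, at 5370. H19 ranged from 17.27 to 17.67 (SD 0.116) and Igf2 from 16.86 to 17.25 (SD 0.104) on the log2 scale. A10 was the highest heart for both, and over the 9 other hearts the SD was 0.0513 and 0.0326. Of the 16 expressed genes of the imprinted list 6 were highest in A10, against 23.2% of all expressed genes.

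Of the genes that mark other cells of the heart wall, those of the matrix stood high, with Col3a1 at 8080 per kb, Col1a1 at 5650 and Eln at 4650, which encode fibrillar collagens and elastin. The smooth muscle actin gene Acta2, which immature cardiomyocytes also express, reached 5820 per kb. Endocardial and endothelial Npr3 (1420), Cdh5 (1180) and Pecam1 (832), epicardial Upk3b (482), Aldh1a2 (302) and Wt1 (203), and macrophage C1qa (128) and Csf1r (99.8) were lower. Of the cell cycle genes, Top2a stood at 1710 and Mki67 at 856 per kb. Fos, an immediate early gene that stress induces, stood at 31.3 per kb, with a log2 normalized count between 5.98 and 6.11 in all 10 hearts. At so low a level the transformation can narrow the spread. In a whole organ, fewer cells of a type and less of the RNA per cell cannot be told apart.

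By chromosome, chromosome 11 held most of the summed normalized count of the autosomes (8.63% ± 0.28, SD, n = 10), with its alpha-globin genes, followed by chromosomes 1 and 7 (8.13% each), with the mitochondrial copies and with H19, Igf2 and the beta-globins. The X chromosome held 3.03% and the Y chromosome 0.0213%. The share of protein-coding genes expressed was lowest on chromosome Y (4 of 151), chromosome 7 (53.1%) and chromosome X (54.1%) and highest on chromosome 12 (77.1%) among the chromosomes of the nucleus. Leading genes per kb included Atp6-ps on chromosome 1, Actc1 on 2, Nppa on 4, Myl2 on 5, Mest on 6, Hbb-y on 7, Eef1a1 on 9, Hba-a2 on 11, Myh7 on 14 and Hsp90ab1 on 17.

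Most genes differed very little between hearts in these values, in which the transformation narrows the spread of low counts by an unknown amount. The median SD of the expressed genes was 0.0538 log2 units over 10 hearts and 0.0463 over the 9 hearts without A10, the 90th percentile was 0.101, and 95 genes had an SD of at least 0.3 (69 without A10, of which 64 were among the 95). Low genes were not more variable than high ones: the median SD was 0.0439 for genes of 10 to 100 normalized counts and 0.0826 for the 185 genes above 10000, and since the authors' transformation shrinks low values, this order is not read as one of the hearts. Eef1a1 (SD 0.0272), Nedd4, a ubiquitin ligase gene (SD 0.0252), and Tpt1 (SD 0.0314) were among the steadiest of the genes above 10000 normalized counts named here. Nedd4 lay between 15.64 and 15.72 on the log2 scale in all 10 hearts.

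**Figure D2:**
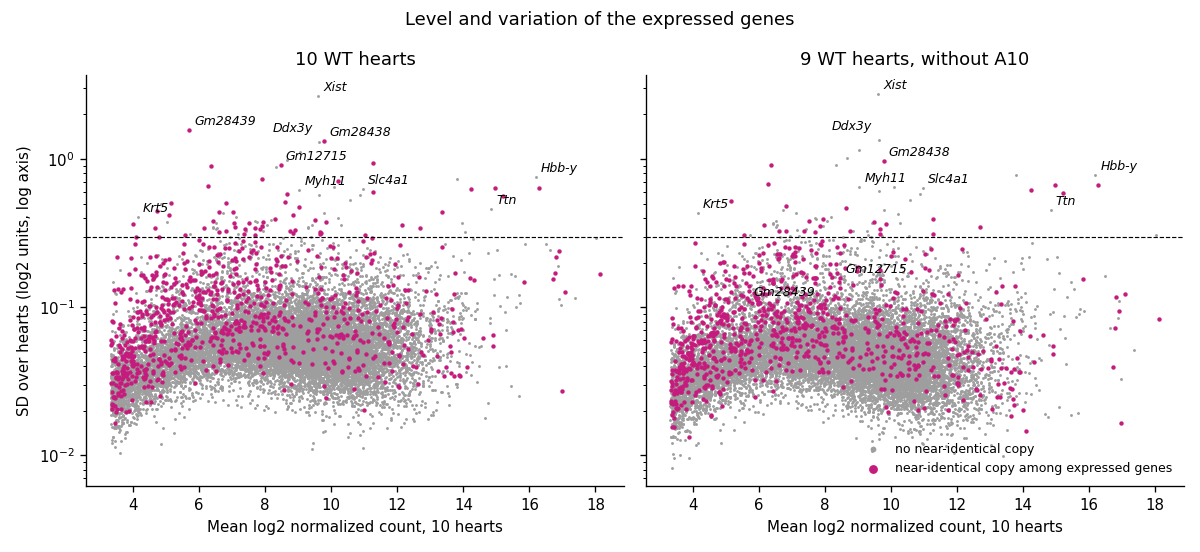
Mean log2 normalized count (x axis) and SD over hearts in log2 units (y axis, log scale) of the 15303 expressed genes, over 10 WT hearts (left) and over the 9 hearts without A10 (right), with genes that have a near-identical copy among the expressed genes in magenta and the SD of 0.3 as a dashed line. Xist, Ddx3y, Hbb-y, Slc4a1, Myh11, Krt5 and Ttn keep a high SD without A10, while Gm28439 and Gm12715 fall below the line.

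Xist, the non-coding RNA that coats the inactive X chromosome in female cells, had the largest SD of all (2.67). It stood at 13.23 in A11, 13.55 in A13 and 13.64 in A19, and between 7.77 and 8.11 in the other 7 hearts, with no value between. Y-linked genes took the opposite values: Ddx3y, an RNA helicase, was 7.65 to 7.85 in A11, A13 and A19 and 10.35 to 10.54 in the other 7, and Eif2s3y, Kdm5d and Uty were likewise lowest in those 3 hearts. X-linked partners that escape X inactivation were highest in the same 3, with Eif2s3x at 12.60 to 12.65 against 12.11 to 12.19 and Kdm6a at 10.42 to 10.47 against 9.99 to 10.07. Ddx3x was 13.47 to 13.51 against 13.29 to 13.37. Because the transformation pulls low values toward the mean of the gene, levels near 8 for Xist and Ddx3y are not read as expression. High Xist with low Y-linked genes, as in A11, A13 and A19, is the pattern of female cells, and the other 7 hearts had that of male cells. Sex was not among the labels used here. All 3 hearts with high Xist were in lane 3, with A5 of that lane at 8.11, so in these hearts lane and this pattern are partly confounded.

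**Figure D3:**
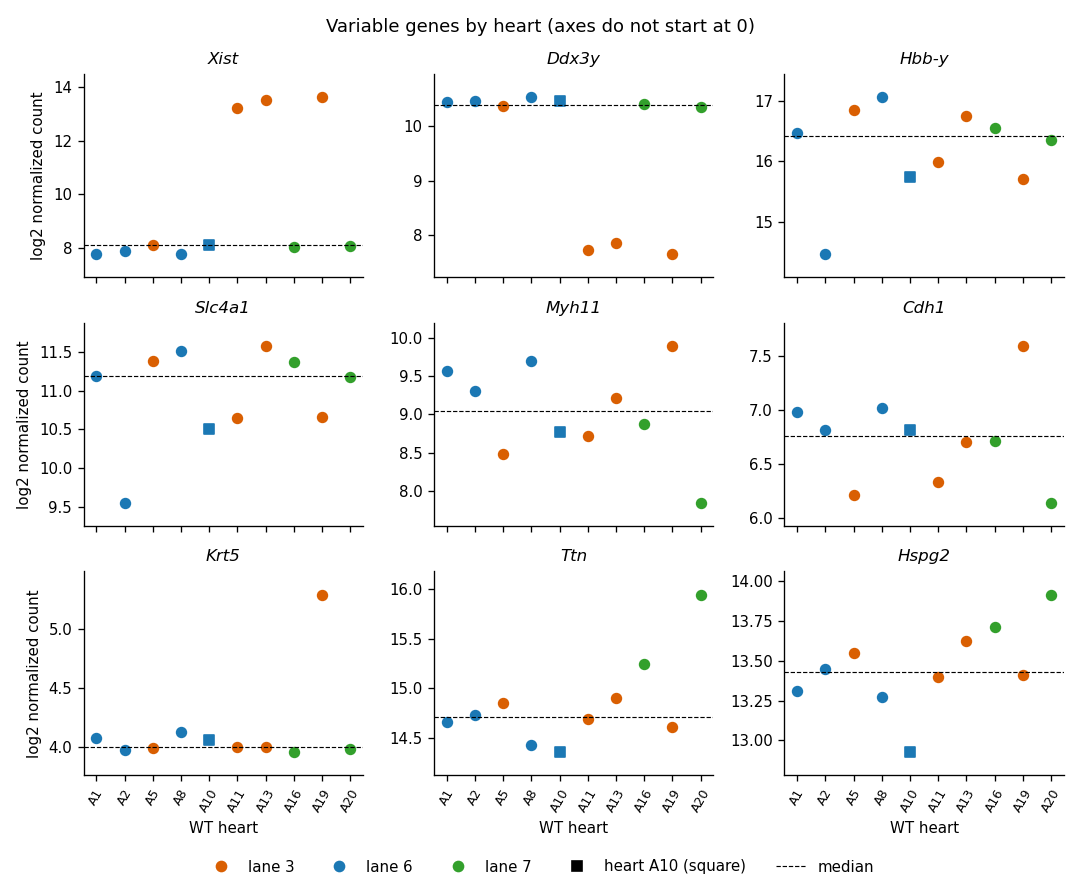
Log2 normalized count of 9 variable genes in each WT heart, coloured by sequencing lane, with A10 as a square and the median of the 10 hearts as a dashed line; the axes do not start at 0. Xist and Ddx3y split the hearts in opposite directions, Hbb-y and Slc4a1 are lowest in A2, Myh11 and Cdh1 are highest in A19 and lowest in A20, Krt5 stands out in A19, and Ttn and Hspg2 are highest in A20 and lowest in A10.

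Red cell genes formed the tightest group of genes that varied together. Among the 500 expressed genes of largest SD, joined by average linkage on 1 minus Pearson's r and cut at 0.5, 7 groups (modules) of at least 10 genes were found over the 10 hearts, and the third, of 41 genes, had a median r between members of 0.93. Its leading genes by SD were the embryonic globins Hbb-y, Hba-x and Hbb-bh1 and the adult-type alpha globins Hba-a2 and Hba-a1, and its most central were Car2 (carbonic anhydrase), Bpgm (2,3-bisphosphoglycerate synthesis), Hbb-y, Slc4a1 (the band 3 anion exchanger) and Tent5c (a poly(A) polymerase). Hbb-y ranged from 14.47 in A2 over a median of 16.41 to 17.06 in A8 on the log2 scale, a 6.04-fold range, and Slc4a1 from 9.55 in A2 over 11.19 to 11.58 in A13. A2 was lowest in 16 of 18 expressed genes of the erythroid list, against 7.55% of all expressed genes, and A8 highest in 9 of 18, against 8.10%. The list's median difference from the gene medians was -1.08 in A2, between -0.351 and -0.302 in A10, A11 and A19, and 0.288 in A8. The 7 globin genes took 0.488% of the summed normalized count in A2 and 2.31% in A8 (1.5% ± 0.55, SD, n = 10).

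Per kb, Hba-a2 (123000) and Hbb-y (118000) were the highest nuclear genes after the mitochondrial copies, followed among the globins by Hbb-bs (57100), Hba-a1 (43200), Hbb-bt (27400), Hba-x (17800) and Hbb-bh1 (1770). Hba-a1 and Hba-a2 differ in 1 of 647 aligned bases and Hbb-bs and Hbb-bt in 33 of 617, so their split is uncertain, but the summed pair Hba-a1 and Hba-a2 kept the same SD (0.636 against 0.637 for Hba-a2 alone). Of the transcription factors of the erythroid list, Gata1 (11.4 per kb) lay between 4.34 and 4.51 and Klf1 (10.1 per kb) between 3.89 and 4.0 on the log2 scale, both with their lowest value in A2 and at levels where the transformation narrows the spread. The erythroid module stayed without A10, when 40 of its 41 genes (97.6%) fell into a module of 61 genes (65.6% of that one).

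RefSeq promoters (GRCm38.p6, 250 bases before to 50 after the start of transcription) were given for 28 of the 41 genes of this module. The GATA motif AGATAA, or TTATCT on the other strand, was found in 8 of the 28 (28.6%), in 713 of 11178 promoters of expressed genes (6.38%) and in 11.4% of 27025 promoters in the table. The CACCC-box motif CCACACCC (or GGGTGTGG) was in 1 of the 28 (3.57%) and in 3.60% of promoters of expressed genes, and the TATA motif TATAAA (or TTTATA) in 7 (25%) and 7.14%. The motifs were chosen after the module had been seen and the counts are a description of these letters. The promoters of Alas2, the first enzyme of heme synthesis in red cells, and of Epb42, which anchors band 3 to the membrane skeleton, are shown with the GATA motif in capitals, as examples of genes that varied together.
Alas2, chrX:150547167-150547466, + strand: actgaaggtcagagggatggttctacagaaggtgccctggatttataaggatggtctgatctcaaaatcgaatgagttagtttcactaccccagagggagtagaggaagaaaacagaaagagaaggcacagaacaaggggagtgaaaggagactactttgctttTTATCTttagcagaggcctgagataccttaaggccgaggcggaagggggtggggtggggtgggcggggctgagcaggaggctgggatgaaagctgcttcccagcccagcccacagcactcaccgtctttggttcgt
Epb42, chr2:121036828-121037127, - strand: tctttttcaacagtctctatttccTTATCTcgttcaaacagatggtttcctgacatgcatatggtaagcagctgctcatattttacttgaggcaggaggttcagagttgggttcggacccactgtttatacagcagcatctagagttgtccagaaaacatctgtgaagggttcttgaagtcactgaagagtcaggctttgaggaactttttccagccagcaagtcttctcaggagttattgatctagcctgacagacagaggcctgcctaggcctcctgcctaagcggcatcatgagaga
Alas2 ranged from 9.55 in A2 to 11.39 in A8 on the log2 scale (SD 0.571) and Epb42 from 6.76 in A2 to 7.83 in A13 (SD 0.326).

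The largest module held 187 genes, 1.22% of the expressed genes, of several kinds. Its genes of largest SD were Myh11 (smooth muscle myosin), Cdh1 (E-cadherin), Hhip (a Hedgehog-binding protein), Krt5 (a basal keratin) and Actg2 (smooth muscle actin), and its most central were Ddr2 (a collagen receptor), Crispld2, Hoxb3, Tshz3 and Mylk (myosin light chain kinase). It held 8 of the 18 genes of the mesenchyme and matrix list, among them Col1a1, Col3a1 and Eln, and 6 of the 9 expressed genes of the lung and gut epithelium list, among them Cdh1, Krt5 and Epcam. Myh11 was lowest at 7.85 in A20, had a median of 9.04 and was highest at 9.89 in A19 on the log2 scale, a 4.11-fold range. Cdh1 (6.14 to 7.59), Hhip (6.43 to 7.72), Actg2 (7.51 to 8.70) and Epcam (5.91 to 7.19) had the same lowest and highest heart. The median gene of the module stood 0.275 above its own median in A19, 0.172 above in A8 and the difference was -0.357 in A20.

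A19 was the highest heart in 8 of 9 expressed genes of the lung and gut epithelium list, against 13.2% of all expressed genes, and A20 the lowest in 7 of 9, against 13.6%. The list was low throughout: its median level was 5.56 on the log2 scale, and Sftpc was below the minimum in the mean of the 10 hearts. Krt5 stood at 5.29 in A19 and between 3.96 and 4.13 in the other 9. All 3 expressed genes of the thymus and pharyngeal endoderm list (Hoxa3, Ccl25 and Pax9) were highest in A19 as well, with Ccl25, a thymic chemokine gene, at 7.23 against 6.77 to 6.99 in the others. Below the minimum of 10, Foxn1 and Pax1, which mark the thymic epithelium and its pouch, were also highest in A19, at 2.12 against 1.57 to 1.58 and at 4.11 against 3.04 to 3.15 on the log2 scale. The part of neighbouring tissue in the values of A19 and A20 was not tested. Sarcomere genes took the other direction, with A19 lowest in 13 of 22 (12.3% of all genes) and A20 highest in 13 of 22 (13.2%).

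A further module of 37 genes consisted mostly of long transcripts, with 4 pseudogenes among them. Its median canonical transcript was 13300 bases long, against 3363 for all expressed genes and 2460 for the 500 genes of largest SD. Ttn, Hspg2 (perlecan), Syne2, Dst, Macf1 and the nuclear RNA Malat1 were members, and Fbn2, Dync1h1, Lama5, Hspg2 and Ubr4 lay closest to its centre. Ttn was lowest at 14.36 in A10, had a median of 14.71 and was highest at 15.94 in A20, with 15.24 in A16 next. Hspg2 (12.93 in A10 to 13.91 in A20) and Malat1 (13.64 in A11 to 14.38 in A20) were also highest in A20. Over all expressed genes with a known length, the difference of a heart from the median of the others correlated weakly with log2 transcript length across genes, with Spearman's rho from -0.14 in A1 to 0.13 in A19 (0.11 in A20, 0.10 in A16 and -0.035 in A10); genes are not independent replicates and no p is given. The 2 hearts in which the module was highest, A20 and A16, are the only ones of lane 7, so lane and heart cannot be told apart here.

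Pseudogenes and genes with near-identical copies made up a larger share of the variable genes than of all expressed genes. Of the 500 genes of largest SD, 22.0% were pseudogenes, against 3.14% of the expressed genes. A canonical transcript with at least 90% identity to that of another expressed gene over at least 50% of its length was found for 164 of 484 genes with a sequence (33.9%) in that set, against 879 of 15167 (5.80%) of all expressed genes and 433 of 480 (90.2%) of the pseudogenes. One module of 35 genes, 60% of them pseudogenes, with Rpl14-ps1, Rps12, Gm28900 and Rpl10 among the genes closest to its centre, was high in A8 (0.289 above the gene medians), A1 (0.279) and A5 (0.171). Its member Rps12, a protein of the small ribosomal subunit, ranged from 7.12 in A20 to 8.14 in A1 on the log2 scale (SD 0.369), but summed with its copies, of which Rps12l1 is identical over 387 bases, it ranged from 12.35 to 12.52 (SD 0.0445). H2ac23, a histone gene whose transcript is identical to that of H2ac24 over 452 bases, ranged from 5.55 to 8.23 alone (SD 0.893) and had an SD of 0.0725 when summed with its copies. Such sums mostly follow the more abundant copies. The mean log2 level was 11.75 for Rps12l1 and 7.52 for Rps12, and 9.85 for H2ac24 and 6.37 for H2ac23.

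Heart A10 stood apart from the other WT hearts. It was the heart farthest from the median in 5234 of 15303 expressed genes (34.2%), followed by A20 (13.6%) and A19 (12.6%), and A16 was so in the fewest (3.91%). Its median absolute difference from the median of the other hearts was 0.0663 log2 units, against 0.0299 to 0.0437 for the others. In 475 genes A10 differed by at least 0.3 from the median of the others (226 higher and 249 lower), and A20, the next, in 230. Its summed normalized count and its median expressed gene were within the range of the other hearts, the median at 8.673 on the log2 scale.

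The second and the fifth module were set by A10. The one, of 81 genes, was 0.592 above the gene medians in A10 and within 0.0331 of them in every other heart; 45 of its genes (55.6%) were pseudogenes, and it held 9 of the 15 mitochondrial genes. The other, of 35 genes (40.0% pseudogenes), was 0.585 below in A10 and within 0.0936 elsewhere. The genes of largest SD were Gm28439, Gm28438, Gm12715, Rpl19-ps11 and Gm10222 in the second and Gm29216, Gm26377, Rpl38-ps2, Gm4735 and Gm9761 in the fifth, and all 10 of them have a near-identical copy among the expressed genes.

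Copies and their partners often moved unequally in A10. Gm28439, which matches mt-Nd4 over its whole length, was 10.15 in A10 and between 5.04 and 5.36 in the other 9 hearts, a difference of 4.93 from their median, while mt-Nd4 itself was 0.55 higher and the sum of both 0.56 higher. Gm29216 was 2.74 lower in A10 on the log2 scale (8.80 against 10.70 to 12.07), whereas mt-Co1 was 0.48 higher and the sum with its copies 0.46 higher. Gm12715, a processed copy of the actin gene Actg1 with 4 differing bases in 1128, stood at 11.03 in A10 against 7.93 to 8.43, Actg1 at 13.90 against 14.30 to 14.44, and their sum with a further copy was 0.31 lower. Rpl19-ps11 was 2.05 higher and the ribosomal protein gene Rpl19 0.03 lower, with a summed difference of 0.09. Gm26377, annotated as a miRNA gene and identical over its 108 bases to part of Eef1a1, was 2.27 lower, and its sum with its copies 0.05 higher.

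The only base in which Rpl19-ps11 differs from Rpl19, and 3 of the 4 in which Gm12715 differs from Actg1, are shown in capitals in 61-base windows of the transcripts (GENCODE M39), because the assignment of a read there rests on them.
Rpl19-ps11 (bases 161 to 221): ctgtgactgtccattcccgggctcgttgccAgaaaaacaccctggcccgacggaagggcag
Rpl19 (bases 363 to 423): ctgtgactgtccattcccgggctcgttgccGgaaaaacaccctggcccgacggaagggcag
Gm12715 (bases 828 to 888): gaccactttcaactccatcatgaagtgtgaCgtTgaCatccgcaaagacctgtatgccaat
Actg1 (bases 1201 to 1261): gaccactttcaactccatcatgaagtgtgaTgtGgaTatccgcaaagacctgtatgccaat
Counted from the first base of the partner's transcript, the windows differ by G393A in Rpl19 and by T1231C, G1234T and T1237C in Actg1, with the partner's base first.

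Of the 100 genes farthest above the other hearts in A10, 64 of 97 with a sequence (66.0%) had a near-identical copy, and of the 100 farthest below 38 of 96 (39.6%). The median absolute difference of those 64 genes was 0.647 alone and 0.141 when each was summed with its copies, and at least 0.3 in 14 of 64 after summing. For the 38 genes it was 0.605 alone and 0.180 after summing. Since the genes were chosen for their values in A10, these medians are a description. A sum over normalized counts also follows its most abundant member, whatever a much lower copy does. For example, the mean log2 level was 5.69 for Gm28439 and 16.8 for mt-Nd4, and 7.92 for Rpl19-ps11 and 13.03 for Rpl19. A small summed difference is therefore no test of how reads were split between copies. Over all 879 expressed genes with a copy, 157 differed by at least 0.3 in A10 alone and 85 after summing. Genes for which this search found no copy also differed in A10, among them Lars2, a mitochondrial leucyl-tRNA synthetase gene (13.10 in A10, 13.81 to 14.38 in the others). Shorter stretches shared with other sequences were not searched.

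**Figure D4:**
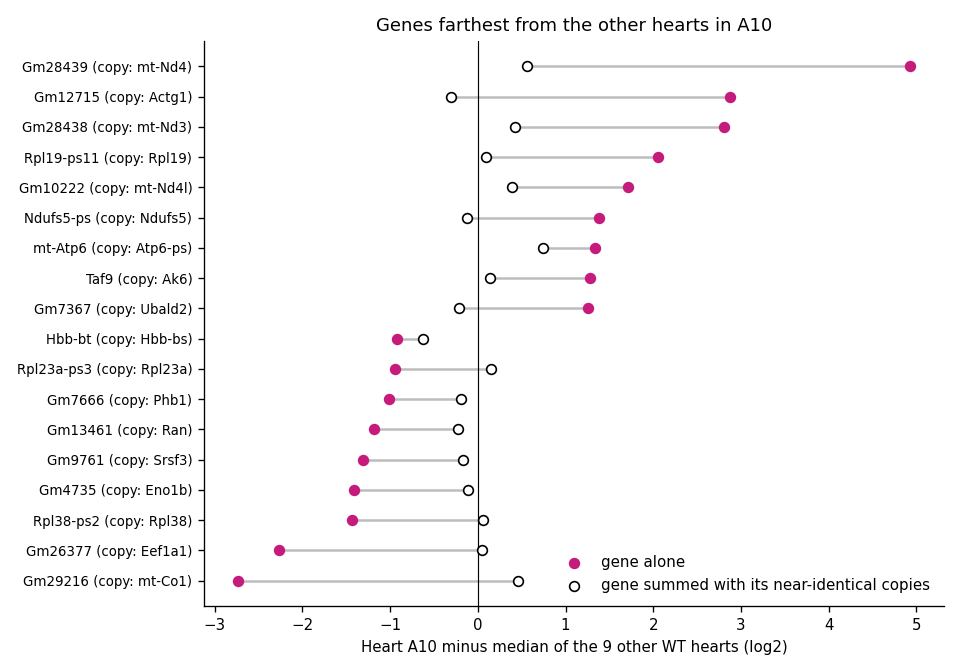
Difference of heart A10 from the median of the 9 other WT hearts (log2 units, x axis) for the genes of largest difference that have a near-identical copy, alone (magenta) and summed with all their near-identical copies (open circles). After summing, most other genes lie nearer 0, while the mitochondrial genes and copies lie between 0.39 and 0.74. Hbb-bt summed with Hbb-bs lies at -0.62 and Gm12715 with its copies at -0.31. A sum follows its most abundant member.

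Mitochondrial transcripts summed with their copies were high in A10. mt-Atp6 with Atp6-ps was 0.74 higher, mt-Co2 with its copies 0.53, mt-Co3 with Gm28437 0.47, mt-Nd3 with Gm28438 0.42 and mt-Nd4l with Gm10222 0.39. Not all were high alone: the difference was -0.06 for mt-Nd3, -0.07 for mt-Nd4l and 0.27 for mt-Co3. Of the genes of the mitochondrial chromosome for which no copy was found among the expressed transcripts, mt-Nd1 was 0.74 higher (17.30 in A10, a median of 16.56 over the 10 hearts), mt-Atp8 0.91 and mt-Cytb 0.53. The search compared canonical transcripts only. Sequence of the insertion on chromosome 1 outside the listed copies was not searched, so shared reads are possible for these genes too. Of the ribosomal RNA genes, mt-Rnr1 was 0.39 and mt-Rnr2 0.09 higher. A10 was highest in 10 of the 15 genes, against 23.2% of all expressed genes. Cytosolic ribosomal protein genes went the other way, with A10 lowest in 20 of 34 (22.8% of all genes) and a median of -0.118, though Rpl4 (0.12) and Rpl41 (0.18) were higher. Cardiac transcription factors were highest in A10 in 13 of 22, with Hand2 0.30, Tbx5 0.24 and Hey2, of the ventricular list, 0.23 higher.

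**Figure D5:**
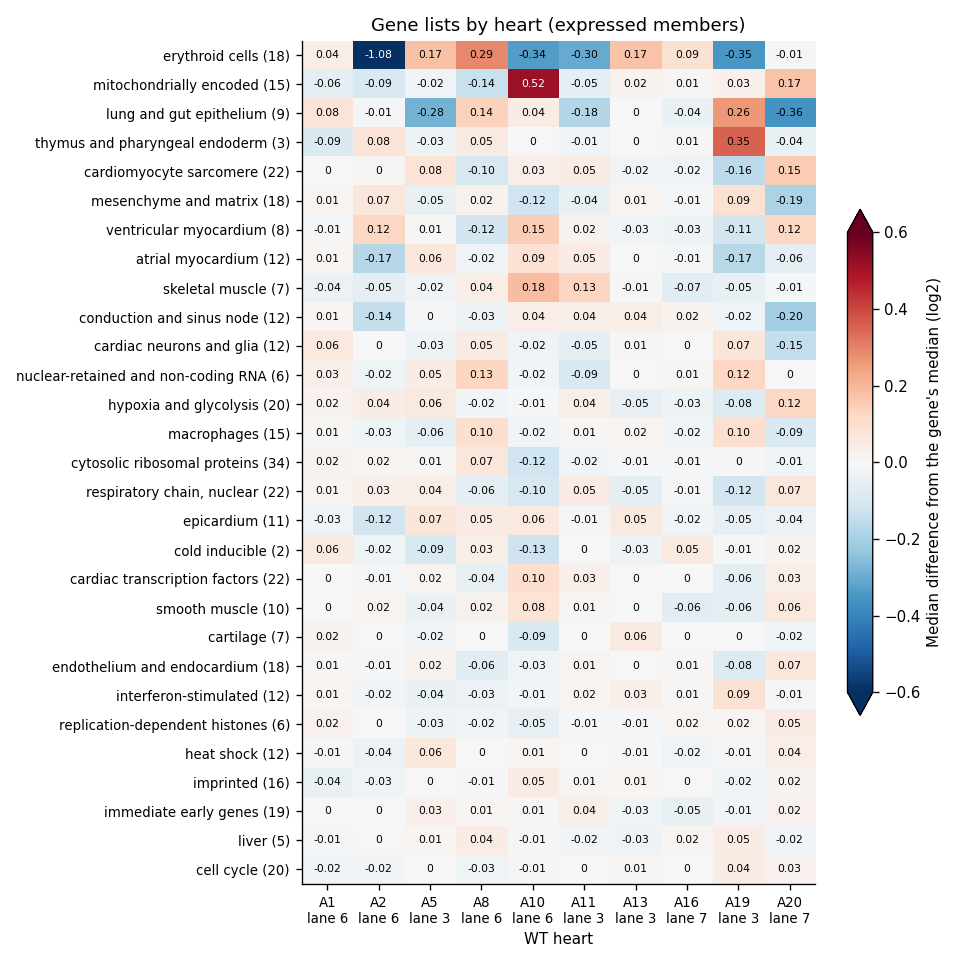
Median difference from each gene's median over the 10 WT hearts (log2 units, colour and number) of the expressed members of 29 gene lists (rows, number of members in brackets) in each heart (columns, with its lane), ordered by range. The erythroid list is lowest in A2, the mitochondrially encoded list highest in A10, and the lung and gut epithelium list highest in A19 and lowest in A20.

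Leaving A10 out kept the largest module and that of the red cells and dissolved the modules that A10 had set. The first principal component of the 500 genes of largest SD held 32.8% of the variance over 10 hearts and 38.7% over 9, the second 24.9% in both and the third 17% and 19.1%. A10 had the highest score on the first component (9.29, the others -5.38 to 1.14), with Gm28439, Gm28438 and Ddx3y at its high end and Xist at its low end. Without A10, Xist and the Y-linked genes held opposite ends of the first component. The largest module then held 248 genes and shared 183 with that of 10 hearts (97.9% of the 187 and 73.8% of the 248), the module around Rps12 and Rpl14-ps1 kept 25 of 35 genes, and the long transcripts 14 of 37. Of the 81 genes of the second module, no more than 4 were in any 1 module of the 9 hearts. Of the 95 genes with an SD of at least 0.3, 35 were pseudogenes, and of the 69 without A10, 13.

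Whether genes of different cell types and processes varied together was examined over 120 pairs of 16 anchor genes, each from a list of its own. By Pearson's r with a permutation test over hearts (two-sided, n = 10) and Benjamini-Hochberg adjustment over the 120 pairs, 0 pairs passed an adjusted p of 0.05, and 21 had an unadjusted p under 0.05 (10 positive and 11 negative). Spearman's rho passed in 0 pairs too. The closest pair joined 2 genes of the myocardium, Myh6 and Nppa, with r = 0.874 (permutation p = 0.00073, adjusted 0.0504) and rho = 0.855 (permutation p = 0.00282, adjusted 0.0888), and r = 0.877 without A2 and A20, the hearts farthest from the median of Myh6. Over 9 hearts without A10 their r was 0.875 (exact permutation p = 0.00154, adjusted 0.0869).

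Col1a1 of the matrix list formed the next pairs of cell type anchors, with Myh11 of the smooth muscle list and Cdh5 of the endothelial list. These are pairs of single genes and are not read as pairs of cell types. The median r of the smooth muscle list with Myh11 was -0.47, and 3 of 17 endothelial genes had r of at least 0.7 with Cdh5. Col1a1 and Myh11 had r = 0.830 (permutation p = 0.00151, adjusted 0.0552) and rho = 0.903 (permutation p = 0.00073, adjusted 0.0546), and r = 0.828 without A10 and A20. Col1a1 and Cdh5 ran in opposite directions, with r = -0.828 (permutation p = 0.00184, adjusted 0.0552), rho = -0.903 (permutation p = 0.00091, adjusted 0.0546) and r = -0.850 without A10 and A8. Hspa8, a constitutive chaperone, and mt-Co1 had r = 0.813 (permutation p = 0.00084, adjusted 0.0504) and rho = 0.830 (permutation p = 0.00452, adjusted 0.108), and r = 0.781 without A10 and A5. Mki67 and Fos had r = -0.830 (permutation p = 0.00393, adjusted 0.0789) and rho = -0.806 (permutation p = 0.00774, adjusted 0.116), and r = -0.815 without A20 and A8. Each lane held at most 4 hearts, too few for a correlation within lanes. After centring each lane on its mean, 3 pairs had an adjusted permutation p under 0.05: Myh6 with Nppa (r = 0.907, adjusted 0.0216), Hspa8 with mt-Co1 (r = 0.876, adjusted 0.0316) and Cdh5 with Col1a1 (r = -0.826, adjusted 0.0316). Hearts were permuted across lanes in that test, without allowance for the centring. Its p-values can therefore be too small and are given as a description.

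A few pairs rested on A10. mt-Co1 and Rpl4, a ribosomal protein gene, had r = 0.780 (permutation p = 0.0778, adjusted 0.374) and rho = 0.0909 (permutation p = 0.810, adjusted 0.893) over 10 hearts, and r = -0.291 without A10 (exact permutation p = 0.430, adjusted 0.680). mt-Co1 and Cdh5 had r = 0.839 (permutation p = 0.00751, adjusted 0.0819) and rho = 0.467 (permutation p = 0.177, adjusted 0.524), and r = 0.50 without A10 (exact permutation p = 0.174, adjusted 0.498).

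Within lists, genes of 1 cell type followed their anchor to very different extents. As a description over the same 10 hearts, the share of list members with r of at least 0.7 to the anchor is given beside the share of all other expressed genes. Red cell genes followed Slc4a1 most: 15 of 17 members, against 1.57% of genes, with Alas2 (0.991) and Car2 (0.990) closest of all genes. Ventricular genes followed Myl2 in 5 of 7 (Irx4, Hey2, Mpped2, Kcne1 and Pln), against 4.47%. For Vegfa, the growth factor induced by low oxygen, it was 9 of 19 genes of the hypoxia and glycolysis list, Ldha and Aldoa among them, against 1.75%. For mt-Co1 it was 8 of 14, against 8.99% (7 of 14 without A10, against 4.67%). Collagens and other matrix genes followed Col1a1 in 5 of 17, against 6.08%, and in 10 of 17 without A10, against 7.88%. Over 10 hearts Col1a2 (r = 0.998) was the closest of all genes to Col1a1, and Col3a1 had an r of 0.983.

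In other lists smaller shares followed the anchor over 10 hearts. They were 4 of 10 epicardial genes with Wt1 (2.12% of all genes), 5 of 14 macrophage genes with Csf1r (4.23%), 3 of 17 endothelial genes with Cdh5 (8.48%, and 6 of 17 against 5.19% without A10), 2 of 21 sarcomere genes with Myh6 (1.87%) and 2 of 11 atrial genes with Nppa (1.95%), these last being Myl7 and Myl4. Without A10 the counts rose to 4 of 21 for Myh6 (3.83%) and 5 of 11 for Nppa (4.23%). The shares were 2 of 9 for Myh11 (6.48%), 2 of 19 for Mki67 (2.15%), 1 of 18 for Fos (0.673%) and 1 of 11 for Hspa8 (2.59%). Without A10 the last and the Mki67 count were 3 of 11 (2.24%) and 4 of 19 (4.3%). Smooth muscle genes split: Mylk and Lmod1 followed Myh11, whereas the median r of the 9 members was -0.47. For Rpl4 the share was 6 of 33 (8.84%), and 1 of 33 (1.24%) without A10. The median r of its list members was -0.52, against -0.0032 over all genes, and 0.36 against -0.0048 without A10. Over 10 hearts 13 of 33 had r of -0.7 or below. The share of all genes at that r is not given, so this count is not read as a result about the list.

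Sequencing lane was compared as the only technical grouping that the labels give. All hearts with high Xist were in lane 3, so lane 6 against lane 3 is in part also a contrast of the male and female patterns. Between the 4 hearts of lane 6 and the 4 of lane 3, limma called 0 of 15303 expressed genes at an adjusted p of 0.05 (0.0%), with 656 at an unadjusted p under 0.05. The moderated F test over the 3 lanes called 1 gene (0.00653%), with 752 at an unadjusted p under 0.05. That gene, Aldh1l1, a folate enzyme, stood at 5.10 in A16 and 5.08 in A20 of lane 7 and between 4.75 and 4.85 in the other 8 hearts (limma, adjusted p = 0.00341), and lane 7 held 2 hearts only. Nothing in the labels says that lanes mark separate collections, and whether p-values here measure litter, dissection or library is not known.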

How the data were processed

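Libraries of polyadenylated RNA from whole hearts were sequenced on a HiSeq 2500, and a log2 normalized count per gene and heart was deposited by the authors for 20 hearts, of which the 10 WT hearts were used. The submitters' processing notes name Trimmomatic 0.36, STAR 2.5.2a, RSEM 1.2.31, DESeq2 and the build GRCm38, and the annotation release and strand setting were not given in the sources used here. The base of the logarithm and the shrinkage of low values were read from the values. Read depth per heart is unknown, because the values keep no counts, so no counting interval is given. 0 columns of the table belonged to no sample. All hearts differed in their values: the closest pair, A1 and A2, had a median absolute difference of 0.0358 and the farthest, A10 and A19, of 0.081.

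Gene names, positions and canonical transcript lengths came from GENCODE M39 (GRCm39), in which 44565 of the 48795 identifiers were found, and 434 of 438 entries of 30 gene lists were matched, older symbols through RefSeq synonyms. Genes with a mean of at least 10 normalized counts (2 to the power of the mean log2 value) were kept. Modules, principal components, correlations and permutation tests (100000 draws for 10 hearts, exact for 9) were computed in Python (3.11.15) with pandas 2.3.3, scipy 1.17.1 and numpy 2.4.6. Lanes were compared with limma 3.58.1 in R 4.3.3 (mean-variance trend, Benjamini-Hochberg adjustment over 15303 genes), which was tested on simulated data: of 200 genes shifted by 0.5 log2 units between lane 6 and lane 3, 193 were called. So were 5 genes that had not been shifted. The shift was large beside the median SD of 0.0538, and smaller shifts were not simulated. Near-identical copies were found with BLAST 2.17.0, and sums with copies were taken over normalized counts.

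Genes named in the text are the anchors, the 25 most abundant by count and per kb, the most variable with and without A10, the 10 highest and 10 lowest in A10, those closest to a module's mean or of largest SD in it, those of highest or lowest level or deviation in the lists, the 5 of highest r with an anchor, the leading gene of each chromosome and any gene past the threshold between lanes. Others, the nuclear copies and their partners, Macf1, Foxn1 and Pax1 among them, were named after their values were seen, and a few results are not reported here. The groups of hearts, lists and members were chosen with earlier results of these data known. The hearts were normalized together with the 10 mutant hearts, which can shift a value through the shrinkage. Leaving out hearts, centring by lane or median, quantile normalization, other minimum levels, other cuts and other test settings were the alternatives.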

Additional observations from a re-analysis of the deposited data

Results flagged for a closer look

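For each of 117 named genes the highest and the lowest heart were compared with the spread of the 10 hearts by Dixon's test, which chance alone passes in about 1 of 20 groups. In 38 genes 1 heart stood apart, and it was A10 in 25 of them. Many of these genes were named for their values in A10 or for their large SD, so these counts are fixed in part by the choice of genes and cannot be read against that rate. Values below are log2 differences of that heart from the median of the other 9 hearts.

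In A10, mitochondrial genes stood apart upward: mt-Co1 by 0.48, mt-Nd1 by 0.74, mt-Nd4 by 0.55, mt-Atp6 by 1.34, mt-Atp8 by 0.91 and mt-Cytb by 0.53. Of their nuclear copies, Atp6-ps differed by 0.69, Gm28661 by 0.51, Gm28437 by 0.49, Gm28439 by 4.93, Gm10222 by 1.71 and Gm29216 by -2.74. Of other genes with a near-identical copy, Gm12715 differed by 2.87 and its partner Actg1 by -0.48, Rpl19-ps11 by 2.05, and Gm26377 by -2.27 with its partner Eef1a1 at 0.06. Further genes apart in A10 were the imprinted H19 (0.33) and Igf2 (0.31), the heart factors Hand2 (0.3) and Tbx5 (0.24), Rpl4 (0.12), Top2a (-0.14), the glycolytic enzyme gene Pgk1 (-0.76) and Lars2 (-0.87).

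In A2 the red cell genes stood apart downward: Hbb-y by -2.0, Hba-x by -1.86, Hba-a1 and Hba-a2 by -1.76 each, Slc4a1 by -1.64, Alas2 by -1.6 and Hbb-bs by -1.45. Tbx18 (-0.16) and Eln (0.66) were the other genes apart in A2. In A19, Krt5 stood apart by 1.3, Pax1 by 1.07, Foxn1 by 0.55 and Ccl25 by 0.36, all upward. No cause was tested for any of these.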

How the results depend on the processing

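Over the alternatives, 54 values were classed as the same as the reported one, 12 as moved and 10 as stronger. For counts of genes the same means of similar size: 20252 or 11388 expressed genes (minimum of 1 or 100) were so classed against 15303. So were 69 genes with an SD of at least 0.3 against 95, and a largest module of 248 genes against 187, both without A10. The mean of each of the 117 named genes moved by less than its SD without A10. The share of the level per kb in the 50 highest genes was 40.6% with merged exon lengths, against 31.3%. The first principal component, 32.8%, took 32.8% to 38.7% with 1 heart left out at a time, 40.5% over 100 genes, 38.1% with lanes centred and 41% without genes that have a near-identical copy, an alternative chosen after seeing the data. Without those genes 42 genes, not 95, had an SD of at least 0.3 over the 10 hearts. The largest module held 113 genes when cut at 0.3, against 187. The anchor pairs with an adjusted p under 0.05 numbered 0 as reported, 0 to 2 with 1 heart left out (2 without A2 and 2 without A11), 3 with lanes centred and 4 with each heart centred on its median. With lanes centred the permutation made no allowance for the centring, so that count can be too high. Genes called between lane 6 and lane 3 numbered 0 to 8 with 1 heart left out (8 without A5), 1 with weights per heart and 1 by the moderated F test over the 3 lanes. That F test called 51 genes with no filter on low values and 7 with weights. The cause was not tested. No paired analysis was possible because each heart carries a number of its own and only 1 genotype was described. The values keep no read counts, so depth sets an unknown limit on low genes.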

Other observations

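Several gene groups not described above also had 1 heart at their end. Genes of the interferon-stimulated list were highest in A19 in 8 of 12 (median difference 0.0892), against 13.2% of all expressed genes, and genes of cardiac neurons and glia lowest in A20 in 8 of 12 (-0.148), against 13.6%. Macrophage genes followed the same pair of hearts, lowest in A20 in 7 of 15 and highest in A19 in 6 of 15, against the same shares. Nuclear genes of the respiratory chain were lowest in A19 in 12 of 22 (-0.117) and highest in A20 in 11 of 22 (0.0701), against 12.3% and 13.2% of all expressed genes, and hypoxia and glycolysis genes highest in A20 in 11 of 20 (0.122). Epicardial genes were lowest in A2 in 6 of 11 (-0.115), against 7.55%.

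The remaining lists had the following medians. The cell cycle list had medians between -0.0256 in A8 and 0.0424 in A19, heat shock genes between -0.0351 in A2 and 0.062 in A5, immediate early genes between -0.046 in A16 and 0.0398 in A11, and endothelial and endocardial genes between -0.0797 in A19 and 0.0654 in A20. The cold-inducible pair Rbm3 and Cirbp ranged from -0.126 in A10 to 0.0562 in A1. Of the liver list 5 of 10 genes were expressed, with medians between -0.0301 and 0.0459, and of the cartilage list 7 of 8, between -0.0895 in A10 and 0.0558 in A13. Of 12 skeletal muscle genes 7 were expressed, with a median of 0.183 in A10. Of 16 replication-dependent histone genes 6 were expressed, at a median of 4.4 on the log2 scale. Over all protein-coding genes the expressed share was 64.8%.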
